A study of Rattus norvegicus with 12 samples.

Results

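Astrocytes are the glial cells that clear glutamate and potassium from the space around synapses, and they are joined to each other through gap junctions. Their maturation falls in the first weeks after birth in rodents. The 10 genes described here encode an intermediate filament protein (*Gfap*), a calcium-binding protein (*S100b*), transporters and a water channel (*Slc1a2*, *Slc1a3*, *Aqp4*), the gap junction proteins connexin 43 and connexin 30 (*Gja1*, *Gjb6*), metabolic enzymes (*Glul*, *Aldoc*) and a glial transcription factor (*Sox9*). They were found by gene symbol among 22523 array probes, which carry 21569 different symbols. Of the 10 genes, 9 matched a probe and 10 probes were found in all, since *Sox9* had 2 probes and the other 8 genes 1 each. *Glul*, glutamine synthetase, matched no row by this rule and was not analysed here.

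The probes were read on Illumina RatRef-12 BeadChips in total RNA of the whole hippocampus. The rats were males at postnatal day 14 from generation F15 of lines selected for opposite locomotor activity in an unfamiliar place, with 6 bred High Responder (bHR) and 6 bred Low Responder (bLR) rats, 1 array each. Neither line carried a transgene or a drug treatment in the labels, and each rat was a separate animal. Array brightness differed between the lines. The 3 arrays under 600 units of mean raw signal were all bHR (replicates 27, 29 and 39, between 453 and 488 units), and the remaining 9, from 3 bHR and 6 bLR rats, had mean signals of 750 to 1038 units. In bHR replicate 27 the mean correlation with the other arrays was 0.987, against at least 0.992 for each of the others. Levels below are log2 signals after quantile normalisation, and differences are bHR minus bLR on that scale. Of 22523 probes, 20 (0.0888%) passed limma at a Benjamini-Hochberg adjusted p of 0.05, 7 higher (0.0311%) and 13 lower (0.0577%) in bHR.

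Astrocyte transcripts were present: the 8 genes with 1 probe each had means above 6.66, the median of all normalised values, in both lines. The brighter *Sox9* probe had a mean above that median in bLR alone (6.86, beside 6.65 in bHR), and the dimmer one in neither line. That median is not a limit of detection. Markers of hippocampal neurons were present as well, with 7 of 7 measured genes above that median. None of the 10 astrocyte probes differed between the lines by limma at an adjusted p of 0.05, and at 0 of 10 probes were the ranges of the lines apart (0.391% of all probes). At an unadjusted limma p under 0.05 there was 1 of 10, the brighter *Sox9* probe, lower in bHR, and the exact permutation test also gave 1. Of all probes 6.02% passed that mark, 3.2% higher and 2.81% lower in bHR. The mean was lower in bHR at 6 of 10 probes and higher at 4, beside 49.1% and 50.9% of all probes (50.2% lower among the brighter ones). The median difference over the 9 genes, with *Sox9* at its brighter probe, was -0.0046, beside +0.0017 over all probes. Values from whole tissue do not separate the number of astrocytes from the RNA per astrocyte.

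**Figure D1:**
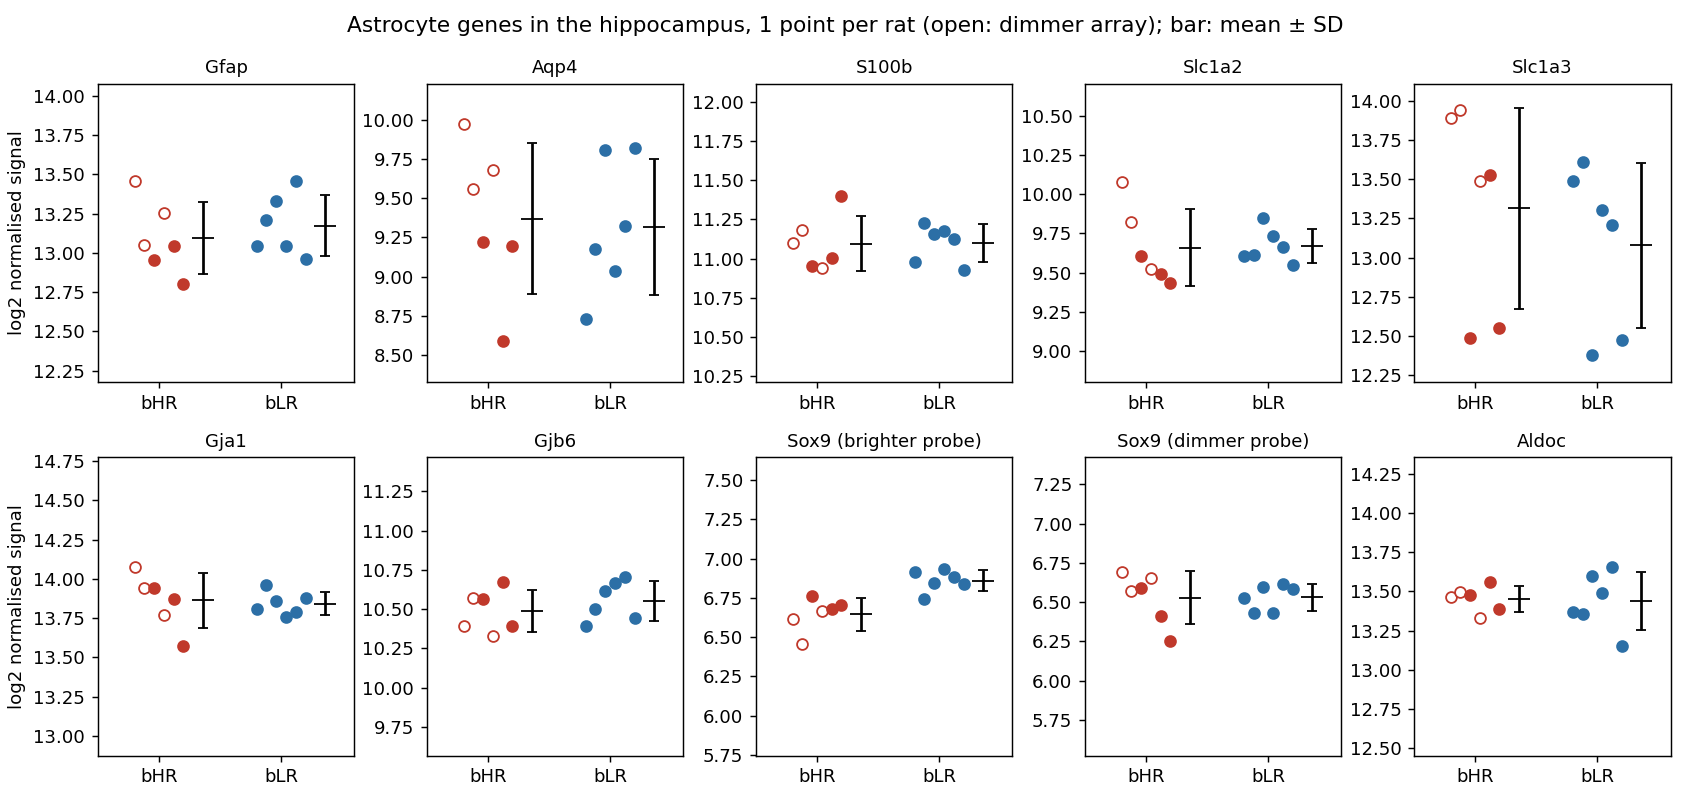
Log2 normalised signal (y axis, the same span in every panel) of each astrocyte probe by line, with 1 point per rat, open points for the 3 dimmer arrays and bars for the mean ± SD (n = 6 per line). The lines overlap at every probe, Slc1a3 and Aqp4 spread most, and the brighter Sox9 probe has the smallest overlap, with 1 bHR rat above the lowest bLR rat.

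*Gfap*, the intermediate filament protein of astrocytes, read 12.80 at the lowest, 13.05 at the median and 13.46 at the highest in bHR rats. The bLR rats read 12.96, 13.13 and 13.46. The highest rats of each line, bHR replicate 27 and bLR replicate 42, stood at the same level, and the bLR range lay within the bHR range. The means were 13.09 ± 0.23 (SD, n = 6) and 13.17 ± 0.19, a difference of -0.08 ± 0.11 (SE; limma adjusted p = 0.95). *S100b*, a calcium-binding protein of astrocytes, ranged from 10.94 through a median of 11.05 to 11.40 in bHR, and from 10.93 through 11.14 to 11.23 in bLR. The top value belonged to bHR replicate 47, which had the lowest *Gfap* of all rats. The line difference of *S100b* was -0.005 ± 0.080 (SE; limma adjusted p = 0.997), and its 95% interval ran from a bHR level 0.885 times to 1.12 times that of bLR.

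The glutamate transporters differed from each other in how much the rats varied. *Slc1a2* encodes GLT-1, the main glutamate transporter of mature astrocytes. It read 9.43 to 10.08 with a median of 9.56 in bHR, and 9.55 to 9.85 with a median of 9.64 in bLR. The 2 highest bHR rats were replicates 27 and 29, both on dimmer arrays, and the lowest was replicate 47. The line difference was -0.01 ± 0.10 (SE; limma adjusted p = 0.99), with a 95% interval of 0.859 to 1.15 times the bLR level. *Slc1a3*, which encodes GLAST, the transporter of radial glia and developing astrocytes, spread over a 2.95-fold range across the 12 rats. Its SD within lines, 0.59, lay at the 99.7th percentile of all probes.

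The *Slc1a3* values fell on both sides of a gap that did not follow the lines. In bHR the lowest, median and highest rats read 12.49, 13.51 and 13.94, and in bLR 12.38, 13.26 and 13.61. Replicates 33 and 47 of bHR and replicates 30 and 46 of bLR lay between 12.38 and 12.55, and the other 8 rats, 4 of each line, between 13.21 and 13.94. The gap was 0.66, or 1.58-fold. All 4 low rats were on brighter arrays. The line means were 13.32 ± 0.64 (SD, n = 6) and 13.08 ± 0.52, a difference of +0.24 ± 0.28 (SE; limma adjusted p = 0.94), and the 95% interval of 0.775 to 1.79 times the bLR level was the widest of the 10. On the 9 brighter arrays the difference was -0.22 (limma adjusted p = 0.94). Because *Slc1a3* varied most, the 250 bases before its start are shown, taken from RefSeq on GRCr8 (chr2:59557809-59558058, minus strand, the first of 3 starts listed). Capitals mark the letters GCCAA, an NFI half-site (TTGGC on the other strand), which 40.3% of 33465 promoters hold in the same window:

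Slc1a3: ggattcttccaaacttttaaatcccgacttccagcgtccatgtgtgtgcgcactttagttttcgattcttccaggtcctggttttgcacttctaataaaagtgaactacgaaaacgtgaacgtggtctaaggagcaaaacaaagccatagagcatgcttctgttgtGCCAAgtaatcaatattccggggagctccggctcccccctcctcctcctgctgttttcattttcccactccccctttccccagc

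On neither strand did the window hold the letters ACAAT, used here as the SOX core (in 10049 of the promoters). It also held no STAT site of the form TTCNNNGAA (7.67%) and no GC box GGGCGG (30.5%). Other forms of these sites were not searched. These matches describe letters only, and NFI, SOX and STAT factors are named because they act in astrocyte development.

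*Aqp4*, the water channel of astrocyte endfeet, was the next most variable, with a 2.60-fold range and an SD within lines of 0.46 (99.1th percentile of all probes). It read 8.59, 9.39 and 9.97 at the lowest, median and highest in bHR, and 8.73, 9.25 and 9.82 in bLR. All 3 dimmer arrays were above the bHR median, and among brighter arrays bLR replicates 30 and 46 stood highest and bHR replicate 41 lowest. The line difference was +0.05 ± 0.22 (SE; limma adjusted p = 0.98). It was -0.31 on the 9 brighter arrays (limma adjusted p = 0.89), where the sign turned as for *Slc1a3* and *Gja1*. On those 9 arrays, the rats of a line that were low in *Slc1a3* were the higher ones of that line in *Aqp4*. The deviations from the line means had a Pearson r of -0.92 and a Spearman rho of -0.90 (exact permutation p = 0.0076 and 0.0081, n = 9). Neither passed when adjusted over the 45 pairs of probes (0.198 and 0.182). Without bLR replicates 46 and 30, the farthest from the *Aqp4* median, r was -0.80. Over all 12 rats r was -0.16 and rho +0.04 (permutation p = 0.64 and 0.91, adjusted 0.94 and 0.99), and r was -0.32 without bHR replicates 27 and 41. The 3 dimmer arrays read 13.49 to 13.94 for *Slc1a3* and 9.56 to 9.97 for *Aqp4*. Within bLR r was -0.90, and within bHR, where 3 of 6 arrays were dim, it was +0.39.

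**Figure D2:**
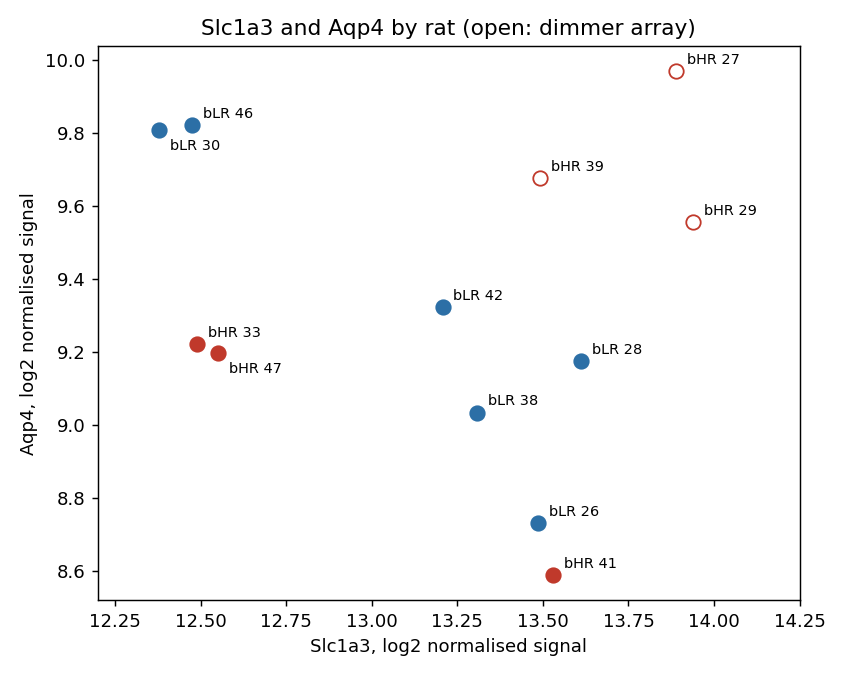
Log2 normalised signal of Aqp4 (y axis) against Slc1a3 (x axis), 1 point per rat (red bHR, blue bLR) labelled by line and replicate, with open points for the 3 dimmer arrays. The 4 rats at 12.38 to 12.55 for Slc1a3 include 2 of each line, and the 3 open points lie at the upper right.

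The gap junction genes and *Aldoc* spread over 1.30-fold to 1.42-fold ranges across the 12 rats. Their SDs within lines lay between the 64.3rd and 71.0th percentiles of all probes. Among probes above the median signal in a line, those SDs lay lower, between the 38.4th and 47.4th percentiles. *Gja1*, connexin 43, read 13.57 to 14.08 with a median of 13.91 in bHR, and 13.76 to 13.96 with a median of 13.83 in bLR. The ends of the bHR range were replicates 47 and 27, and all bLR rats lay between them. Its line difference was +0.02 ± 0.07 (SE; limma adjusted p = 0.98), and -0.05 on the 9 brighter arrays. *Gjb6*, connexin 30, ran from 10.33 through 10.48 to 10.67 in bHR and from 10.40 through 10.56 to 10.70 in bLR, a difference of -0.07 ± 0.07 (SE; limma adjusted p = 0.94). *Aldoc*, the aldolase isoform of brain glycolysis, ran from 13.33 through 13.47 to 13.56 in bHR. In bLR it ran from 13.15 through 13.43 to 13.65, and the bHR rats all fell inside that range. Its difference was +0.02 ± 0.08 (SE; limma adjusted p = 0.99). For these 3 genes the 95% intervals of the line ratio lay between 0.858 and 1.13 times the bLR level.

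*Gjb6* and *Aldoc* were the pair of probes that moved together most closely across the 12 rats. Both were high in bLR replicates 30 and 42 and bHR replicate 41, and low in bHR replicate 39. The deviations from the line means gave r = 0.79 and rho = 0.83 (permutation p = 0.0019 and 0.0022), and after adjustment over 45 pairs neither passed (0.085 and 0.0999). Without bHR replicate 39 and bLR replicate 42, farthest from the *Gjb6* median, r was 0.70. It was 0.90 within bHR, 0.83 within bLR and 0.82 on the 9 brighter arrays (rho 0.83; exact permutation p = 0.011 and 0.018, adjusted 0.198 and 0.264, n = 9; r = 0.91 without bHR replicate 47 and bLR replicate 26). The 250 bases before each start are set side by side (RefSeq, GRCr8; *Aldoc* chr10:63715294-63715543, plus strand, and *Gjb6* chr15:35410139-35410388, minus strand, the first of 2 starts listed), with GC boxes in capitals:

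Aldoc: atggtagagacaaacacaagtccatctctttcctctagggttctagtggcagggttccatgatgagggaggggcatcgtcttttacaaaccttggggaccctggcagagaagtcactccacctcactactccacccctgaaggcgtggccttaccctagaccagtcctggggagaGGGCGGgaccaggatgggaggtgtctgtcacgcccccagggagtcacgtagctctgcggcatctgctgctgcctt

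Gjb6: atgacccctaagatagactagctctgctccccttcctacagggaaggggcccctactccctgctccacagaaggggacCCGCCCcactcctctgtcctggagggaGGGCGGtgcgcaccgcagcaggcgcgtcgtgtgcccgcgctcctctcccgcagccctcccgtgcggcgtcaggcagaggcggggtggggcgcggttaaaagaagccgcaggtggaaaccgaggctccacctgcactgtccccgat

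The *Aldoc* window held 1 GC box, 75 to 70 bases before the start, and the *Gjb6* window held 2, at 172 to 167 and 145 to 140 bases before it. Neither held the NFI, SOX or STAT letters searched. The share of G and C was 58.0% for *Aldoc*, 68.0% for *Gjb6* and 48.0% for *Slc1a3*, beside a median of 51.2% over all promoters.

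Of the 45 pairs, 28 were positively and 17 negatively correlated, and 0 passed at an adjusted p of 0.05. Replicate 27 of bHR was among the 3 highest rats at 6 of 10 probes. *Slc1a2* and *Gja1* had r = 0.64 (rho 0.55; permutation p = 0.086 and 0.115; adjusted 0.49 for both), with 0.44 without bHR replicate 27 and bLR replicate 30, 0.20 on the brighter arrays, 0.82 within bHR and -0.29 within bLR. *Gfap* and *Aldoc* had r = 0.47 over 12 rats (rho 0.38; permutation p = 0.114 and 0.236; adjusted 0.49 and 0.589), with 0.37 without bHR replicate 27 and bLR replicate 42, -0.04 within bHR, 0.83 within bLR and 0.84 on the brighter arrays. There rho was 0.88 (exact permutation p = 0.013 for r and 0.0074 for rho, adjusted 0.198 and 0.182, n = 9), and r was 0.57 without bLR replicates 42 and 30.

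**Figure D3:**
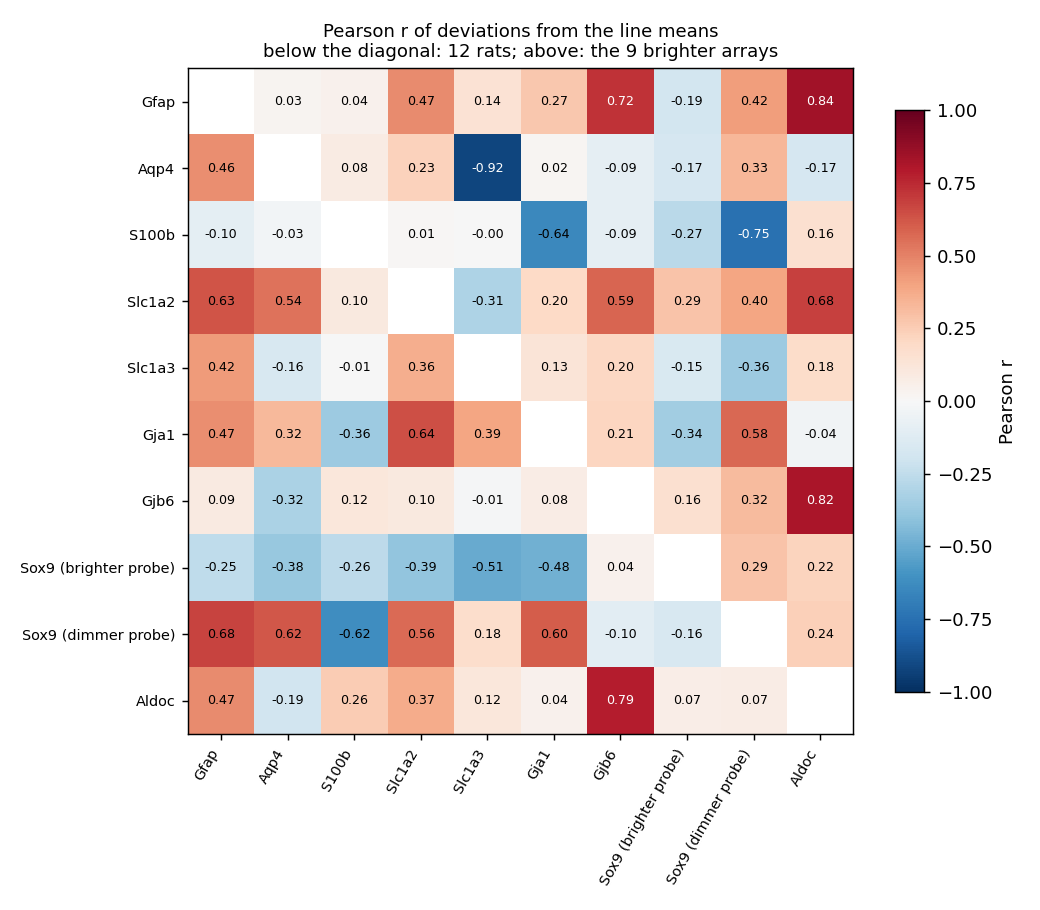
Pearson r between the deviations of each pair of astrocyte probes from their line means, over 12 rats below the diagonal and over the 9 brighter arrays above it (colour from -1 to 1). Gjb6 with Aldoc is high on both sides (0.79 and 0.82), while Aqp4 with Slc1a3 stands at -0.16 below and -0.92 above.

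*Sox9*, a transcription factor that specifies glia, gave the smallest p of the group, and its probes disagreed. At the brighter probe the bHR rats read 6.46, 6.67 and 6.76 at the lowest, median and highest, and the bLR rats 6.74, 6.86 and 6.93. Of the 6 bHR rats 5 lay below every bLR rat, and replicate 33 lay above bLR replicate 28 alone. The means were 6.65 ± 0.10 (SD, n = 6) and 6.86 ± 0.07, so that bHR stood just under the median of all probes and bLR above it. The difference of -0.21 ± 0.06 (SE), or 1.16 times higher in bLR, ranked 99th of all probes by p and did not pass (limma p = 0.0017, adjusted p = 0.38; exact permutation p = 0.0043, where the smallest possible is 0.0022). It was -0.15 on the 9 brighter arrays (limma adjusted p = 0.83, 0.026 before adjustment in limma).

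The dimmer *Sox9* probe, with both line means under that median, read 6.25 to 6.69 with a median of 6.58 in bHR and 6.43 to 6.62 with a median of 6.56 in bLR. Its difference was -0.002 ± 0.073 (SE; limma adjusted p = 0.998), and the bLR range lay wholly within the bHR range. Across rats the probes were not alike (r = -0.16, rho = -0.34; permutation p = 0.68 and 0.34, adjusted 0.94 and 0.64; r = -0.0087 without bHR replicate 29 and bLR replicate 38, and 0.29 on the brighter arrays). Both probes read close to the array median.

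**Figure D4:**
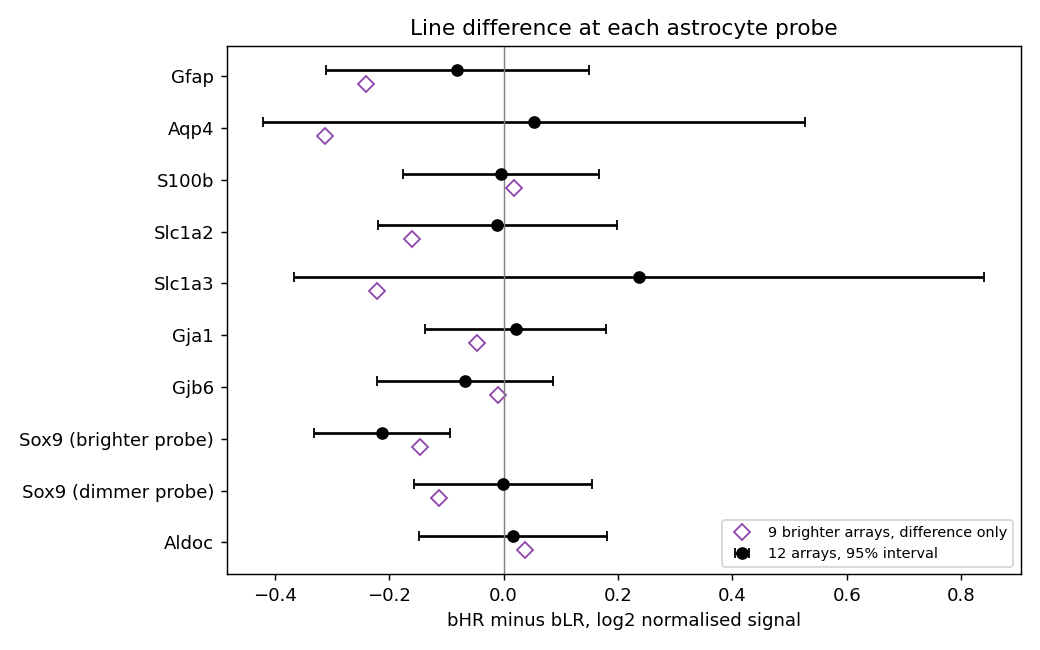
Difference between the lines (x axis, bHR minus bLR, log2 normalised signal) at each astrocyte probe, as black points with 95% intervals over 12 arrays and open diamonds over the 9 brighter arrays. All intervals but that of the brighter Sox9 probe include 0, and those of Slc1a3 and Aqp4 are the widest.

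The mean over the 10 probes ran from 10.57 in bHR replicate 47 to 10.97 in bHR replicate 27, with all bLR rats between 10.66 and 10.84. To 2 decimals, replicate 27 was highest or joint highest for *Gfap*, *Aqp4*, *Slc1a2*, *Gja1* and the dimmer *Sox9* probe, and replicate 47 lowest for *Gfap*, *Slc1a2*, *Gja1* and the dimmer *Sox9* probe. Without replicate 27 the differences of these genes were -0.15 for *Gfap*, -0.07 for *Aqp4*, -0.09 for *Slc1a2* and -0.02 for *Gja1*, none of them called (lowest limma adjusted p among the 10 probes 0.53). Without replicate 47 they were -0.02 for *Gfap*, +0.09 for *Aqp4*, +0.03 for *Slc1a2* and +0.08 for *Gja1*, again with none called (lowest limma adjusted p 0.36). Other cell types were present in the tissue too, and 0 of their markers passed limma. The choroid plexus transcript *Ttr* spread from 7.98 to 15.27 in bHR rats and from 13.36 to 15.11 in bLR rats. The 8 choroid plexus markers averaged 6.68 to 8.75 in bHR rats and 7.69 to 8.52 in bLR rats, and 7 microglial markers 8.44 to 8.88 and 8.75 to 8.90. The 9 neuronal markers averaged 11.66 to 12.10 and 11.73 to 11.82, and the 7 of hippocampal neurons 9.02 to 9.64 and 9.24 to 9.41. For 7 oligodendrocyte markers the means were 9.96 to 10.33 in bHR and 10.01 to 10.55 in bLR, with 3 genes at an unadjusted limma p under 0.05. The 5 endothelial and pericyte markers averaged 8.997 to 9.27 and 9.06 to 9.29, with 1 such gene, and the 5 ependymal markers 7.41 to 8.28 and 7.62 to 7.97. The part of these cell types in the astrocyte values was not tested.

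For each gene, the probes of other genes whose ranks across the 12 rats were most like its own were found among 11197 brighter-than-median probes. Since they are the highest of so many, their correlations of deviations from line means are descriptions. *Aqp4* was followed almost rank for rank by *Picalm*, an adaptor of clathrin-coated vesicles (rho = 0.99, r = 0.98), and by *Arih1*, a ubiquitin ligase (0.98, 0.93). *Slc1a3* was followed by *Mras*, a RAS-family GTPase (rho = 0.96, r = 0.92), and LOC500379 (0.94, 0.82). *Slc1a2* had *Fam107a* (rho = 0.96, r = 0.94) and the phosphodiesterase *Pde1a* (0.92, 0.95) nearest, and *Gfap* had *Plch2*, a phospholipase C (0.93, 0.86), and *Ap5z1* (0.90, 0.92). *Gja1* had *Eif2ak2*, the kinase PKR (rho = 0.93, r = 0.87), and *Klf16* (0.93, 0.83), and *S100b* had *Ptprd*, a receptor phosphatase (0.87, 0.90), and *Cinp* (0.87, 0.78). The glutathione transferase *Gstm7* was near both *Aldoc* (rho = 0.90, r = 0.87) and *Gjb6* (0.87, 0.84), while LOC499221 was the nearest to *Aldoc* (0.94, 0.84) and the nuclear envelope protein *Emd* came after *Gstm7* for *Gjb6* (0.86, 0.73). The brighter *Sox9* probe had *Tspan8* (rho = 0.91, r = 0.65) and LOC499553 (0.88, 0.91).

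Other genes of astrocytes were counted in 5 lists, which share some genes with each other and with the 10. Among 24 measured genes of 28 further astrocyte markers, 12 had higher and 12 lower means in bHR, with a median of -0.0006 beside +0.0017 over all probes, and 0 passed limma in either direction. None reached an unadjusted p under 0.05. Nearest were *Sparcl1*, a secreted matrix protein (-0.12 ± 0.06), *Slc6a11*, the GABA transporter GAT-3 (+0.13 ± 0.08), and *Cldn10*, a claudin (-0.13 ± 0.09; SE, limma adjusted p from 0.83 to 0.89).

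Among 14 genes of glutamate uptake and the glutamine cycle, 9 were higher and 5 lower in value (median +0.012) and 0 passed, with 2 at an unadjusted limma p under 0.05, where 6.02% of all probes stood. The lowest p belonged to *Slc17a6*, the vesicular glutamate transporter VGLUT2 of neurons (+0.33 ± 0.08, limma adjusted p = 0.35), *Slc38a5*, a glutamine transporter (+0.22 ± 0.08, 0.71), and *Slc38a1*, a glutamine transporter of neurons (+0.19 ± 0.09, 0.83). For junction, water and ion genes, 11 of 17 were higher and 6 lower (median +0.020), with 0 passing and 2 at an unadjusted limma p under 0.05. There *Dtna*, a dystrobrevin of the endfoot complex, had a difference of -0.16 ± 0.08 (SE; limma adjusted p = 0.83).

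Genes of glial fate and radial glia gave 8 higher and 12 lower of 20 (median -0.030), with 0 passing and 2 at an unadjusted limma p under 0.05. Nearest there were *Id3*, an inhibitor of basic helix-loop-helix factors (-0.21 ± 0.09), *Hes5*, a Notch target (+0.16 ± 0.08), and *Sox10*, a factor of the oligodendrocyte lineage (+0.10 ± 0.05; SE, limma adjusted p of 0.82 to 0.83). Among 12 measured genes linked to reactive astrocytes, 6 were higher and 6 lower (median -0.0001), 0 passed and 1 had an unadjusted limma p under 0.05, and 6 of the 12 were above the median signal of all probes. *Cd44*, a hyaluronan receptor, had the lowest p (-0.16 ± 0.05, SE; limma adjusted p = 0.61), followed by *Socs3*, a cytokine feedback inhibitor (+0.11 ± 0.05), and *Steap4*, a metalloreductase (-0.11 ± 0.05), both below that median.

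**Figure D5:**
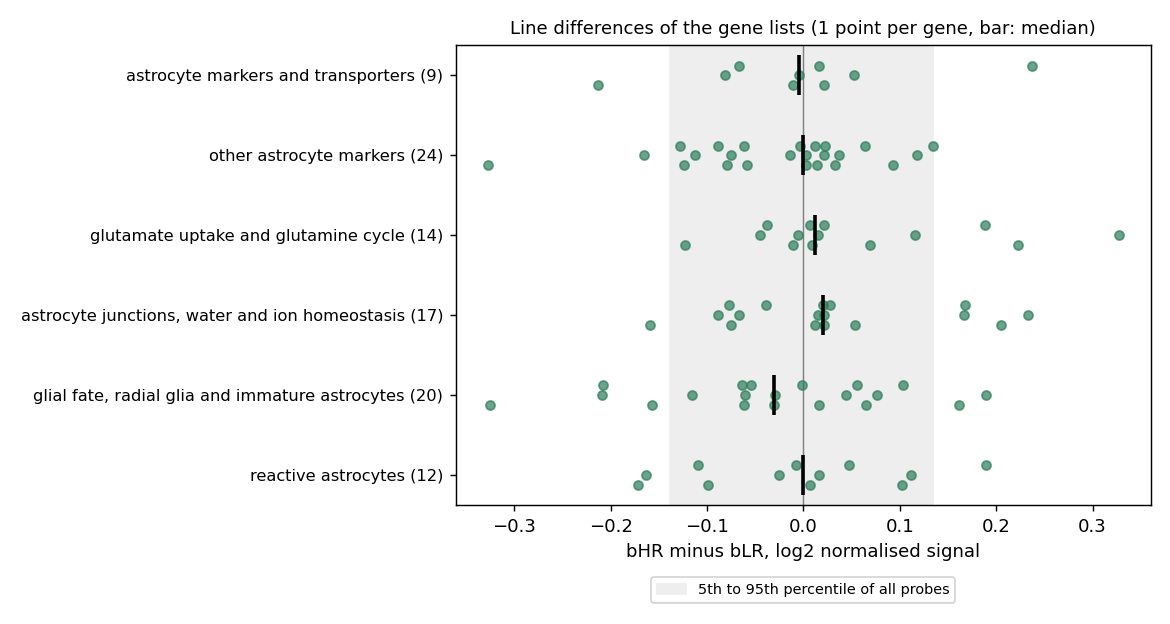
Difference between the lines (x axis, bHR minus bLR, log2 normalised signal) of each measured gene in 6 lists, 1 point per gene with the number of genes in brackets, black bars for medians, and grey for the 5th to 95th percentile of all probes. The medians lie between -0.030 and +0.020, and no gene shown passed limma over all probes.

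The scaling of the arrays set the sign of several of these small differences. With arrays centred only on their medians 9 of 10 astrocyte probes were lower in bHR (median -0.29), and with no scaling 10 of 10 (median -0.49). The brightest 25% of all probes moved as far, with medians of -0.30 and -0.50. At an unadjusted p under 0.05 these settings gave 6 and 9 of the 10 probes, beside 24.3% and 43.8% of all probes, and none passed adjusted (lowest limma adjusted p 0.165 and 0.092). On the 9 brighter arrays, quantile normalised, 8 of 10 were lower (median -0.13) and 3 had an unadjusted p under 0.05 (5.72% of all probes): *Gfap* (-0.24), *Slc1a2* (-0.16) and the brighter *Sox9* probe, the lowest limma adjusted p being 0.83. With array brightness as a block in a fit of all 12 arrays, the differences were the same. The design fixed this, since all 3 dimmer arrays were bHR. In the block fit 1 of 10, the brighter *Sox9* probe, had an unadjusted limma p under 0.05 (0.033, with 0.052 for *Gfap* and 0.135 for *Slc1a2*).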

How the data were processed

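Total RNA of 12 whole hippocampi was read on 12 arrays, 6 per line. Per the design text and the submitters' processing notes, the authors extracted average bead signals with limma 3.28.21. One deposited table gives those linear intensity values without normalisation. The other gives log2 values that the authors had quantile normalised, per the design text. Whether background was subtracted is not stated there. The authors noted a potential outlier and kept all samples.

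Here log2 was taken of each intensity, followed by quantile normalisation across the 12 arrays, and the result differed from the authors' values by a median of 0.0004 and at most 0.254. All 22523 probes entered one model (lmFit, eBayes; limma 3.58.1 in R 4.3.3), line as the only factor, two-sided, with Benjamini-Hochberg adjustment over all probes and a threshold of 0.05. Single probes also had an exact permutation test over 924 assignments. Correlations used 100000 permutations within lines, or all 4320 orders on the 9 brighter arrays. The number of arrays limits the precision. On simulated arrays of 22523 probes, the fit recovered 34% of differences of 0.25, 80% of 0.5 and 94% of 0.75, with 8 false among 160 calls. Each share is over 50 planted differences of that size, and the measured arrays gave 20 calls. Recovery at probes as variable as *Slc1a3* (SE of the line difference 0.28) and *Aqp4* (0.22) was not tested separately, so the shares do not describe these genes.

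The members, the lists and the alternatives were chosen with earlier results of these data known. Named genes are all member probes, the 3 lowest p of each described list, and the 2 probes most like each member by Spearman rho. Some genes that this rule names are not reported here. *Ttr* and the pairs described were picked with their values in view. The alternatives were other scalings, normexp, the authors' values, a filter on dim probes, variance trend, array weights, array brightness (9 arrays, or a block) and leaving out each rat. Lists used a gene's probe with the highest mean, with names updated through GRCr8 (10281 matched on the symbol, 4969 through a synonym, 1641 on the gene ID).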

Additional observations from a re-analysis of the deposited data

How the results depend on the processing

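None of the astrocyte probes tested (10, or 9 with the filter on dim probes) passed limma under any of the 21 other fits, and 0 genes of the 13 lists did. *Gfap*, *Gjb6* and the brighter *Sox9* probe kept a negative sign in all alternatives, at -0.605 to -0.0222, -0.583 to -0.0103 and -0.42 to -0.15. Without 1 rat *Gfap* ran from -0.154 (bHR replicate 27) to -0.0222 (bHR replicate 47) and *Gjb6* from -0.104 to -0.0357. Signs turned elsewhere. With median centring *Aqp4* gave -0.234, *Slc1a3* -0.0600, *Gja1* -0.280, *Aldoc* -0.295 and the dimmer *Sox9* probe +0.00137. Without scaling *Aqp4* gave -0.433, *Slc1a3* -0.259, *Gja1* -0.479 and *Aldoc* -0.494. On the 9 brighter arrays (3 bHR, 6 bLR) *Aqp4* gave -0.313, *Slc1a3* -0.221, *Gja1* -0.0466 and *S100b* +0.0186. The fit with brightness as a block gave the same differences, which the design fixed. Array weights gave +0.0027 at the dimmer *Sox9* probe. Leaving out 1 rat at a time, the differences ran from -0.0672 to +0.209 for *Aqp4*, -0.0656 to +0.0271 for *S100b*, -0.0943 to +0.0340 for *Slc1a2*, +0.0970 to +0.402 for *Slc1a3*, -0.0220 to +0.0797 for *Gja1*, -0.0350 to +0.0540 for the dimmer *Sox9* probe and -0.0408 to +0.0594 for *Aldoc*. Of all probes, 20 were called, against 6 with median centring, 4 without scaling, 6 with the block, 1355 at an unadjusted p of 0.05, and 9 to 24 without 1 rat. The count fell to 12 without bHR replicate 29, 10 without 39 and 12 without 47, and to 13, 9 and 13 without bLR replicates 26, 28 and 30. The cause was not tested. No paired analysis was possible because no number is shared between a bHR and a bLR rat.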
